A study of Mus musculus with 2 samples.

Results

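Expression of the ATF4-CHOP branch of the integrated stress response was examined in MIN6 cells on both arrays of the study. The members are 10 genes of this branch, found by the accession of their probes: the transcription factors Atf4, Atf5, Atf3 and Ddit3, and the genes Trib3, Ppp1r15a, Chac1, Asns, Sesn2 and Ddit4. All 10 genes were found, with 11 probes among 27224 named probes of 20653 genes, and every one of the 11 probes was well above background on both arrays. MIN6 is an insulinoma line from a transgenic C57Bl/6 mouse that still secretes insulin in response to glucose, and it was used at passages 15 to 20. Cells were transduced with a lentivirus carrying mouse FTO in the vector pLVX-IRES-ZsGreen, or with the same vector lacking FTO as the control, so both cultures carry the green reporter ZsGreen, whose fluorescence was looked at after 48 h. There was 1 array per condition and both were hybridized with Cy3-labeled RNA, so the spread between cultures is unknown and no test was possible. RNA of a whole culture was measured, so fewer cells that express a gene and less RNA per cell cannot be told apart.

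The integrated stress response is the pathway by which cells slow translation when protein folding, amino acid supply or heme is disturbed, or when double-stranded RNA is present. Kinases phosphorylate the translation factor eIF2, most protein synthesis falls, and the mRNA of ATF4 is translated better because of short reading frames ahead of its coding sequence. ATF4 protein is therefore set largely by translation, which an array of mRNA does not measure, whereas its target genes respond at the level of transcription. ATF4 switches on Ddit3, which encodes CHOP, and Atf3, and these factors act with it on a common set of genes for amino acid supply, redox balance, feedback and, under lasting stress, cell death. Pancreatic β cells depend on this pathway because of the load of proinsulin that they fold.

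The RefSeq sequences around the transcription start of the members (assembly GRCm38.p6, 250 bases before to 50 bases after the start) are given first, because the branch is known for a common regulatory element. ATF4 binds with a C/EBP partner to the element called CARE, searched here as TGATGNAA on both strands. It was found for Atf3, Chac1, Asns and Trib3, 4 of the 10 genes, and in 3.97% of all 32851 promoter windows. The matches begin 110 bases before the start in Atf3, 193 bases before it in Chac1 and 23 bases before it in Asns, while in Trib3 the match begins at base 15 of the transcript. A full cyclic AMP response element, searched as TGACGTCA, was found in Ppp1r15a alone among the members, 12 bases before the start, and in 1.79% of all windows. Ddit3 alone among them held an AP-1 element, searched as TGANTCA, 242 bases before the start, against 7.81% of all windows. The stretches with these matches follow, written 5′ to 3′ along the strand of the gene, with the match in capitals. For Trib3 only the 30 bases around the match are shown, and for the others the 250 bases before the start.

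Atf3 (chr1:191183334-191183583, minus strand): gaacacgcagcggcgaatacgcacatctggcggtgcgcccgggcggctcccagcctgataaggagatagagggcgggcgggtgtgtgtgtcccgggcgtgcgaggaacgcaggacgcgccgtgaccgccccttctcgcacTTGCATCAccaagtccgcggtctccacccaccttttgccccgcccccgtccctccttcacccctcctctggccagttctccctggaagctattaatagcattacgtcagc
Chac1 (chr2:119350992-119351241, plus strand): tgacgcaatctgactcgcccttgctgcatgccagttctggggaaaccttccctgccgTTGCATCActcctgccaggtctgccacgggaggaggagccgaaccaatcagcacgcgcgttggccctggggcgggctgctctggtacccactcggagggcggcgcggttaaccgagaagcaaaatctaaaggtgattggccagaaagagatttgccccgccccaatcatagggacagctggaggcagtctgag
Asns (chr6:7693210-7693459, minus strand): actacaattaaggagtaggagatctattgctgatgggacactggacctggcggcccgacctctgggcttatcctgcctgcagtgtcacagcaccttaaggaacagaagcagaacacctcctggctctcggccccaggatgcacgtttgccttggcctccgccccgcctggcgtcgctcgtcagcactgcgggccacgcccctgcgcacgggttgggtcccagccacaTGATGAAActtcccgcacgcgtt
Trib3 (chr2:152344028-152344057, minus strand): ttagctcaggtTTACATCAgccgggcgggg
Ppp1r15a (chr7:45526269-45526518, minus strand): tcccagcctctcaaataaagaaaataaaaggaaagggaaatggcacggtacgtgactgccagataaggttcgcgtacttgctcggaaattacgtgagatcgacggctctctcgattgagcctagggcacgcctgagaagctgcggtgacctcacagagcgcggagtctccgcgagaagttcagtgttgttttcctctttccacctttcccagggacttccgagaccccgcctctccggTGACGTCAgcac
Ddit3 (chr10:127290543-127290792, plus strand): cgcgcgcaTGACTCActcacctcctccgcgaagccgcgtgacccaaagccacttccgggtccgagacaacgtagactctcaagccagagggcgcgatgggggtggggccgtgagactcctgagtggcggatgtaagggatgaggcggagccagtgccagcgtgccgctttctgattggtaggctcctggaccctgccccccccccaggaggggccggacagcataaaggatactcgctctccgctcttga

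There were 4 other motifs in the search. The short site TGACG, which also lies within the full element of Ppp1r15a, was found for 6 of the 10 genes and in 20.8% of all windows, and CCAAT for 7 genes and in 37.4% of all windows. TTNNGCAA, a C/EBP-like site, and the endoplasmic reticulum stress element bound by ATF6 were found for 0 of the 10, with 10.8% and 0.119% of all windows holding them. A match describes letters in this window, and binding was not measured. Atf5 has a pair of start sites, both of which were searched. The members without CARE, full cyclic AMP or AP-1 letters in their windows were Atf4, Atf5, Sesn2 and Ddit4.

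The signal of each spot is an intensity with background removed, and the arrays were quantile normalized, as in the study. Before normalization the median signal, control spots left out, was 292 for the FTO array and 237 for the control array. Fto itself had 1 probe, whose signals of 7301 and 5179 left a log2 difference of 0.06 after normalization. That is within the spot error of 0.20, and whether the probe lies in the part of the mRNA carried by the vector was not determined here, so the names of the arrays below rest on their labels. The spot error combines the error estimates that the scanning software gave for both spots. It was 0.20 for every member and for Fto. Among 201 probes printed 10 times with a mean log2 signal above 10, a range that holds all members, the median SD of the difference between spots at the same place on both arrays was 0.06, so the spot error is the wider of both measures. All 10 β cell markers examined, including Ins1, Ins2, Iapp and Pdx1, were flagged as well above background on each array. Their log2 differences after quantile normalization lay between -0.24 for Ins2 and 0.45 for Slc2a2. The brightest of them depended on the scaling. When the arrays were scaled by their 75th percentile instead, Ins2 was at -0.64, Iapp at -0.56 and Ins1 at -0.46, while Slc2a2 stayed at 0.45. Of 9 markers of other cells, 8 were tested, which required a probe above background on either array and so says little of how many are present. The hormone genes Gcg of α cells, Sst of δ cells and Ppy were among those above background. Gcg had signals of 257411 on the FTO array and 243558 on the control array. Those of Ins1 were 215620 and 220341, and those of Ins2 276722 and 320363. Ppy had signals of 14003 and 10872, and Sst of 1834 and 1225. After quantile normalization the log2 differences of the 8 genes lay between -0.26 for Ptprc and 0.29 for Cpa1.

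After quantile normalization most ATF4-CHOP genes had a lower level on the FTO array, although before it 7 of the 10 had a higher signal there. Of the 10 genes, 8 had a log2 difference under 0, against 48.3% of the 18513 genes tested, with the brightest probe taken where a gene has more than 1. The median of the 10 was -0.28, beside 0.01 for all genes tested. The lowest were Trib3 at -0.82, Atf3 at -0.60 and Ddit3 at -0.52, and the highest were Asns at 0.06 and Atf4 at 0.09. In 7 genes the signal was lower by more than the spot error and in 0 it was higher by more than the spot error, against 13.9% and 14.7% of all genes tested. Because dim probes scatter more, the same shares were taken over the 9991 genes with a mean log2 signal above 10, where they were 6.52% and 8.1%, and 46.2% of those genes had a difference under 0.

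**Figure D1:**
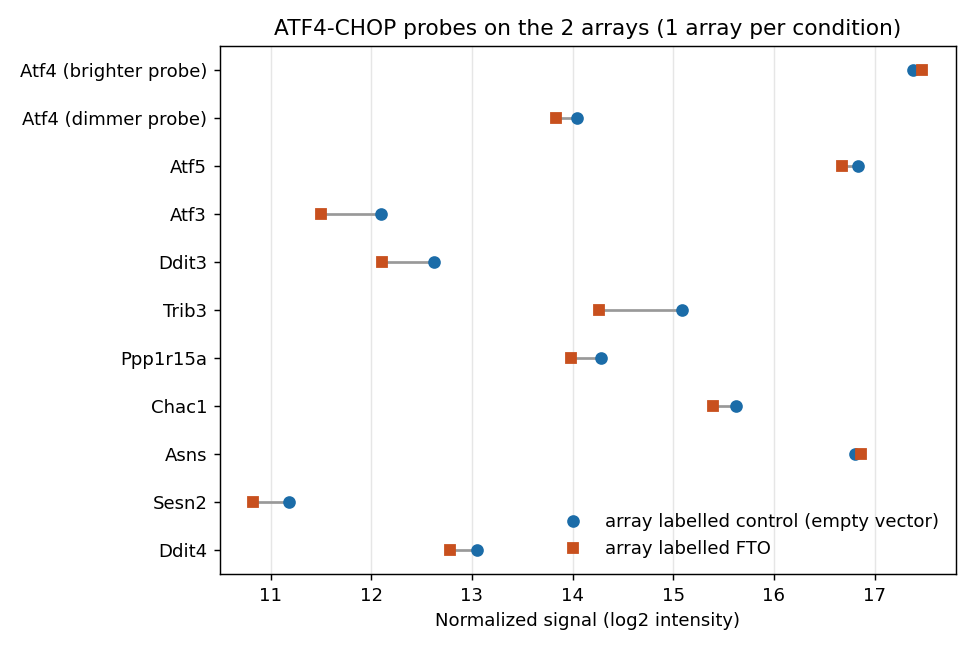
Normalized signal of the 11 ATF4-CHOP probes, as log2 intensity, on the control array (circles) and the FTO array (squares), joined for each probe, with 1 array per condition. The circle lies to the right for 9 probes, with the longest distance for Trib3, and the square lies to the right for Asns and the brighter Atf4 probe.

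Atf4 encodes the factor at the head of the branch. Its brighter probe had signals of 192373 on the FTO array and 161059 on the control array, which became 17.47 and 17.38 on the log2 scale after normalization. Its dimmer probe had signals of 17079 and 14482, which became 13.83 and 14.04. The probes thus differed in sign, at 0.09 and -0.21, the first within the spot error and the second at its edge. The sign of the brighter probe turned with the scaling, to -0.17 with the 75th percentile, -0.07 with cyclic loess and -0.02 with normexp, so no direction is given for Atf4. At signals of this height the scalings part, and the median of the 710 genes with a mean log2 signal above 16 moved from 0.03 with quantile normalization to -0.13 with the 75th percentile.

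Atf5 encodes a factor related to ATF4 whose translation is raised by eIF2 phosphorylation as well. Its signals were 116614 on the FTO array and 105943 on the control array, or 16.67 and 16.83 after normalization. The difference of -0.16 was within the spot error and lay between -0.29, with the 75th percentile, and -0.07, with normexp.

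Atf3 and Ddit3 encode the factors that ATF4 induces. Atf3 had signals of 3321 on the FTO array and 3792 on the control array, and after normalization 11.50 and 12.10, a 1.51-fold lower level (log2 difference -0.60, spot error 0.20). Ddit3 had signals of 5082 and 5442, and after normalization 12.10 and 12.63, a 1.44-fold lower level (log2 difference -0.52, spot error 0.20). Both differences were more than 2 times the spot error. Of the 9991 genes with a mean log2 signal above 10, 0.39% had a lower difference than Atf3 and 0.48% a lower difference than Ddit3. With quantile normalization, the 75th percentile, cyclic loess or normexp, Atf3 lay between -0.63 and -0.60 and Ddit3 between -0.53 and -0.49.

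Trib3, a pseudokinase that ATF4 and CHOP induce and that restrains them in turn, differed most among the members. Its signals were 22924 on the FTO array and 29975 on the control array, and after normalization 14.26 and 15.08, a 1.77-fold lower level (log2 difference -0.82, spot error 0.20). Of the 9991 brighter genes, 17 (0.17%) had a lower difference. The value lay between -0.82 and -0.78 under the ways of normalizing. Its spot does not lie in an area of the array where repeated spots had lost signal, and the 57 probes with a mean log2 signal above 10 within 10 rows and 5 columns of it had a median difference of -0.03.

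Ppp1r15a encodes GADD34, the subunit that directs a phosphatase to eIF2 and ends the response, and Chac1 encodes an enzyme that breaks down glutathione. Ppp1r15a had signals of 18929 on the FTO array and 17082 on the control array, which became 13.99 and 14.28 after normalization, a difference of -0.29. Chac1 had signals of 49838 and 43960, which became 15.40 and 15.62, a difference of -0.23. Both were lower on the FTO array by more than the spot error, Chac1 by little, and with cyclic loess Chac1 was within it, at -0.19.

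Asns, the asparagine synthetase that carries the best studied CARE, was on the other side. Its signals were 131129 on the FTO array and 103981 on the control array, and after normalization 16.86 and 16.80. The difference of 0.06 was within the spot error, and it turned to -0.09 with the 75th percentile and to -0.01 with cyclic loess. Asns shares the CARE letters with Atf3, Chac1 and Trib3 above, so the genes with the element span nearly the whole range of the members, from -0.82 to 0.06.

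Sesn2 and Ddit4 encode inhibitors of the growth kinase complex mTORC1 that are induced under stress. Sesn2 had signals of 2089 on the FTO array and 2025 on the control array, which became 10.83 and 11.19 after normalization, a difference of -0.36. Ddit4 had signals of 8208 and 7341, which became 12.79 and 13.05, a difference of -0.27. Both were lower by more than the spot error, and 1.33% and 3.01% of the 9991 brighter genes had a lower difference.

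**Figure D2:**
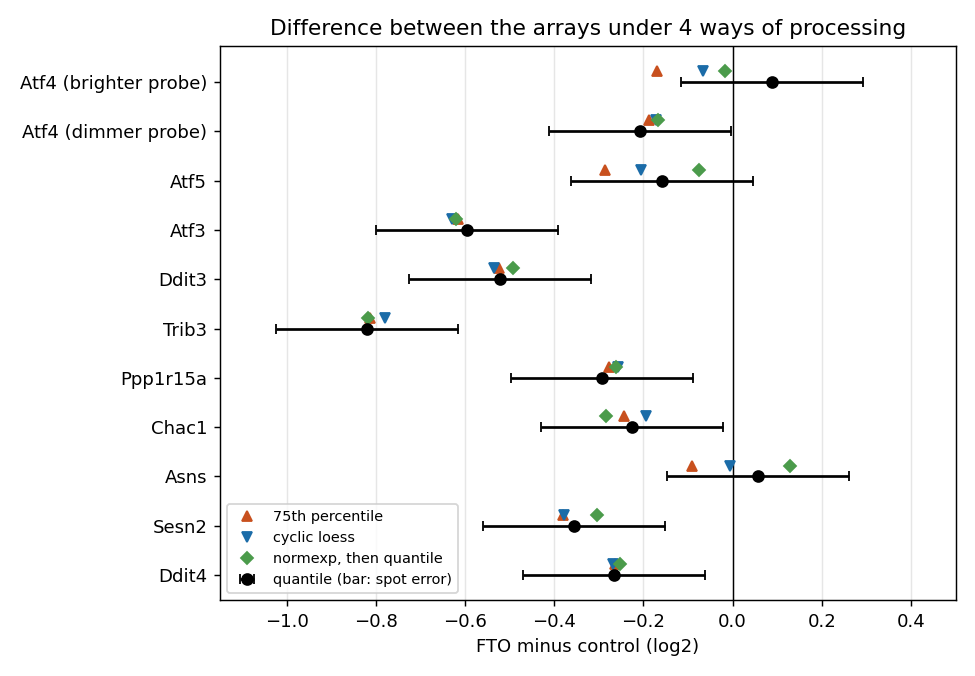
Log2 difference, FTO minus control, of each ATF4-CHOP probe after quantile normalization (circles, with the spot error as bar) and under 3 other ways of processing (triangles and diamonds). Trib3, Atf3 and Ddit3 lie near the same value under all of them, whereas Atf4 (brighter probe) and Asns lie on both sides of 0.

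No member passed a 2-fold difference, which 1.09% of all genes tested passed as higher and 1.6% as lower on the FTO array (0.01% and 0.12% of the 9991 brighter genes). At 1.5-fold, 2 members passed, Trib3 and Atf3, both lower. The background was 4.15% of all genes tested for lower (769 genes) and 2.8% for higher (519 genes), and with the 75th percentile it was 1625 lower and 249 higher genes. Among the 9991 genes with a mean log2 signal above 10 it was 0.4% for lower and 0.0901% for higher, and with the 75th percentile 0.45% for lower. Atf3 is just inside the 1.5-fold line and Ddit3 just outside it. Before any normalization Trib3, Atf3 and Ddit3 were the only members with a lower signal on the FTO array (log2 differences of -0.39, -0.19 and -0.10), while the median of all genes tested was 0.37 higher there. Relative to that median, all 11 probes were lower, between -0.76 for Trib3 and -0.04 for Asns. The unnormalized median was 0.29 for the 710 genes with a mean log2 signal above 16. Against it Asns, at 0.33, was higher, and the brighter Atf4 probe, at 0.26, was lower by little. The sign for these bright probes thus depends on the reference.

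**Figure D3:**
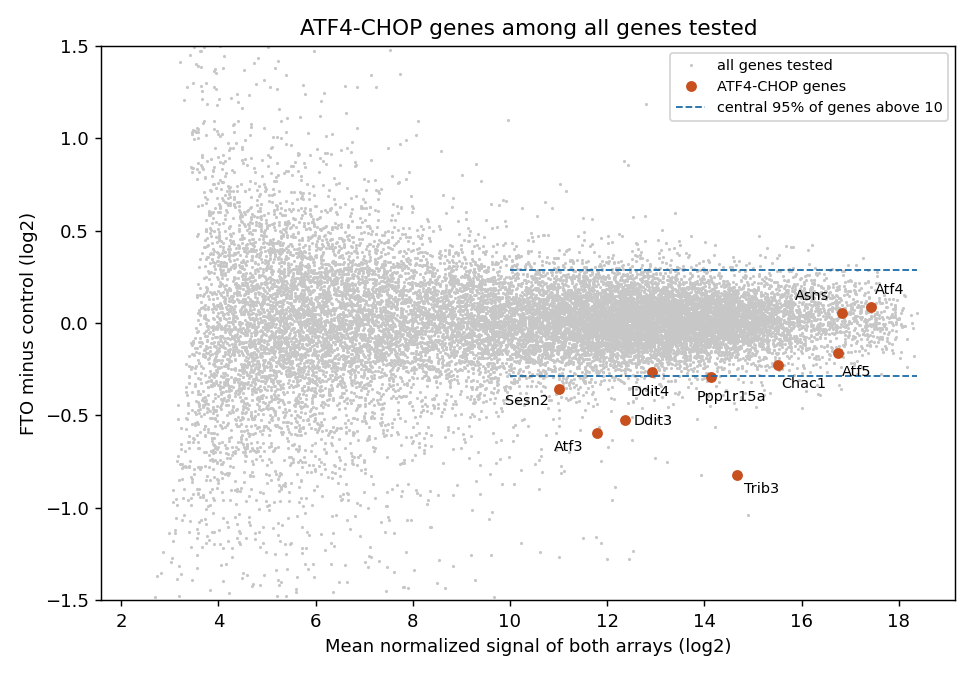
Log2 difference, FTO minus control, against the mean normalized log2 signal of both arrays for all 18513 genes tested (grey) and the ATF4-CHOP genes (orange), with dashed lines at -0.29 and 0.29 around the central 95% of genes with a mean signal above 10. Trib3, Atf3, Ddit3, Sesn2 and Ppp1r15a lie under the lower line, the last by a little. The vertical axis ends at 1.5, which leaves out 227 genes.

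None of the 11 probes lay in the areas of lost signal. These were found by dividing each array into 35 blocks and comparing repeated spots of 79 probes, which marked 6 blocks of the FTO array and 2 of the control array. For genes named here and below, an area of lost signal is a block marked on either array, without regard to which. The 79 probes were dim, all of them dimmer than any member, so loss at bright spots was not checked in this way. The median difference of bright probes around each member lay between -0.07 and 0.03, and for Atf3 and Ddit3 it was -0.01 (70 probes) and 0.01 (73 probes).

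The genes upstream of ATF4 were examined with a list of 13 genes for the eIF2 kinases, the subunits of eIF2 and of its exchange factor eIF2B, and the phosphatase subunit Ppp1r15b. Their median difference was -0.04, with 6 genes above 0 and 7 below, and 0 passed 1.5-fold. Eif2ak2, which encodes the kinase PKR that senses double-stranded RNA and is itself an interferon-induced gene, was highest, with signals of 3060 on the FTO array and 1768 on the control array and a difference of 0.40. With the brightest probe of each gene and quantile normalization, no other gene of the list differed by more than the spot error. Eif2ak3, which encodes PERK, the kinase of the endoplasmic reticulum, had a difference of 0.18, which passed the spot error with cyclic loess (0.22) and normexp (0.23), Eif2ak4 (GCN2, the sensor of uncharged tRNA) of 0.01 and Eif2ak1 (the heme-regulated kinase) of 0.05. The lowest was Eif2b3 at -0.17, with a second probe at -0.16. Of the 4 further probes in this list, 2 had the sign of the brightest probe, and the probes disagreed for Eif2s3x, at -0.04 and 0.22, and for Eif2s1, at -0.05 and 0.15.

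Factors that pair or act with ATF4 and CHOP, together with related regulators, formed a list of 11 genes. Its median was -0.11, with 2 genes above 0 and 9 below, against 48.3% of all genes tested below 0. Nupr1, a stress-induced chromatin protein, was lowest at -0.39, with signals of 21743 and 20966. Cebpz, which despite its name is not itself a partner of ATF4 or CHOP, was highest at 0.14. Jun, a subunit of AP-1, was at -0.33. The main C/EBP partners Cebpb and Cebpg were at -0.13 and -0.09, both within the spot error.

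Genes of amino acid supply lie downstream of ATF4. The 11 transporters tested had a median of -0.17, with 10 genes below 0 and 4 lower by more than the spot error. The shares over all genes tested were 48.3% and 13.9%. Slc7a3, a carrier of cationic amino acids, was lowest at -0.44, and its spot lies in an area where repeated spots had lost signal on either array. Slc36a1 was highest at 0.14. Slc6a9, the glycine transporter GLYT1, was at -0.43 with both of its probes. Slc3a2, the heavy chain shared by several carriers, was at -0.24, and Slc7a11, its partner in the cystine carrier, at -0.29. By their brightest probes the other transporters were within the spot error. Besides Slc36a1 these were Slc38a2 and Slc1a4 at -0.17, Slc7a5 at -0.15, Slc38a3 at -0.11, Slc7a1 at -0.07 and Slc1a5 at -0.03. All 4 further probes of the transporters had the sign of the brightest probe of their gene.

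The 12 tested enzymes of serine, one-carbon and related amino acid metabolism had a median of -0.14, with 11 below 0, 5 lower and 1 higher by more than the spot error. The shares over all genes tested were 48.3%, 13.9% and 14.7%. Gpt2, the mitochondrial alanine transaminase, was lowest at -0.50. Cth, which makes cysteine from cystathionine, was at -0.48 with both probes, the brighter of them in an area of lost signal. Shmt2, at -0.26 and also among the 5 lower genes, and Aldh1l2, at -0.02, lie in such areas too. Phgdh, the first enzyme of serine synthesis, was at -0.32 and -0.30 with its probes, while Psat1 and Psph, which follow it, were at -0.15 and -0.13 with the brighter probe and -0.22 and -0.29 with the dimmer. Cbs, which feeds Cth with cystathionine, was the exception at 0.32, with signals of 91583 and 57254.

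ATF4 also induces many aminoacyl-tRNA synthetases, the enzymes that load tRNAs. The 19 genes of this list, Xpot included, had a median of -0.01, with 8 above 0 and 11 below, between -0.35 for Vars and 0.19 for Dars. By more than the spot error 3 were lower and 0 higher, against 13.9% and 14.7% of all genes tested. Of the 19 genes, 6 lie in areas of lost signal, among them Cars, at -0.30 and 1 of the 3 lower genes. Of the 3 further probes in this list, 1 had the sign of the brightest probe, and the probes disagreed for Wars, at 0.15 and -0.38, and for Xpot, at 0.10 and -0.04.

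Other genes induced through ATF4 or CHOP formed a list of 19, which shares Nupr1 with the list of partners. Their median was -0.11, with 14 below 0, and 8 were lower and 0 higher by more than the spot error. Among all genes tested 48.3% were below 0, and 13.9% were lower and 14.7% higher by more than the spot error. Of the 19 genes, 7 lie in areas of lost signal. Fgf21, Tnfrsf10b and Jdp2, which count among the 8 lower genes, are among them. The lowest was Eif4ebp1, an inhibitor of cap-dependent translation, at -0.40, and the highest Atg5, a gene of autophagy, at 0.12. Bbc3, which encodes the death protein PUMA, was at -0.34, and Fgf21, a secreted stress hormone, was at -0.34 on a dim probe with signals of 433 on both arrays that lies in an area of lost signal.

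The other arms of the unfolded protein response were described for comparison. The 16 genes of the ATF6 and XBP1 arms had a median of 0.04, with 9 above 0 and 7 below, and 3 differed by more than the spot error on each side. Over all genes tested 13.9% were lower and 14.7% higher by more than the spot error. Dnajb9, a chaperone gene that XBP1 induces, was highest at 0.26, with a second probe at 0.07, within the spot error. Hyou1 was lowest at -0.51 on a dim probe in an area of lost signal. Hspa5, which encodes the chaperone BiP, was at -0.14. This list holds many of the brightest probes, and its median turned to -0.16 with the 75th percentile and -0.10 with cyclic loess, so no direction is given for it. With 1 array per condition, the difference between this list and the ATF4-CHOP genes was not tested.

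**Figure D4:**
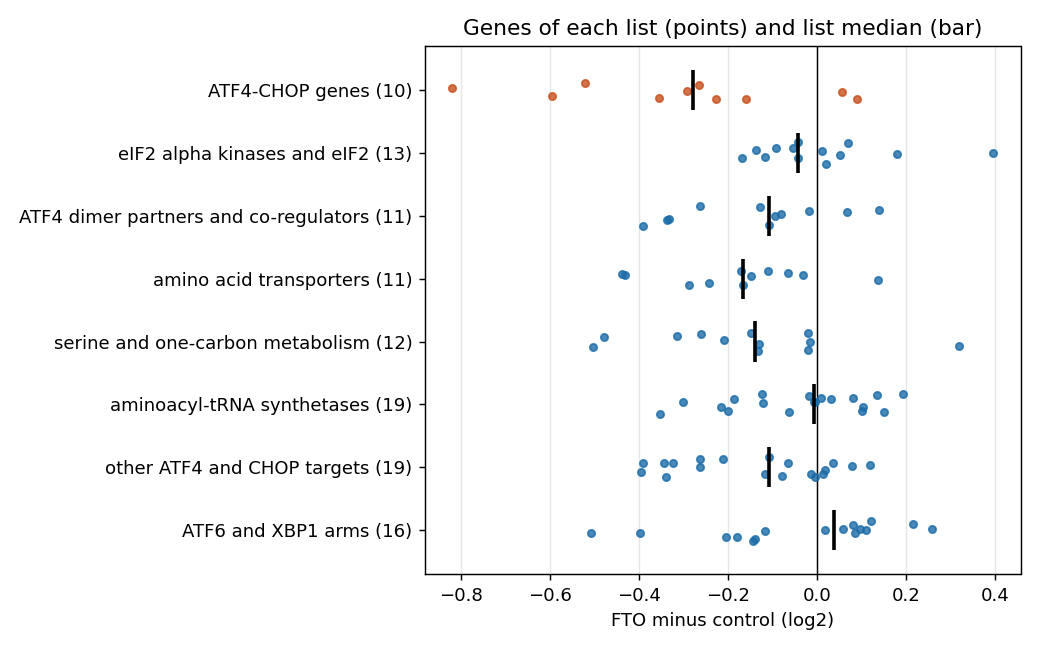
Log2 difference, FTO minus control, of the tested genes of 8 lists (points, 1 per gene, with the number of genes in brackets) and the median of each list (bars). The ATF4-CHOP genes lie furthest to the left with a median of -0.28, followed by the amino acid transporters at -0.17 and the enzymes of serine and one-carbon metabolism at -0.14.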

How the data were processed

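RNA of MIN6 cells with FTO or empty vector was measured on 1 one-color Agilent array each. The authors deposited the intensity of each spot from Feature Extraction 11.0.1.1, with local background subtracted and the spatial trend removed, its error estimate and flags, which are recorded as other values of 0 or 1. They also deposited log2 values of 33870 probes, quantile normalized in GeneSpring GX.

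Here control spots and outlier spots (148 and 141) were left out, log2 signals were averaged over the spots of each probe, and the 39417 probes went through quantile normalization (limma 3.58.1, R 4.3.3). Tables and figures used Python 3.11.15, pandas 2.3.3, numpy 2.4.6 and matplotlib 3.10.9. A gene was tested by its brightest probe among those well above background on either array. Probes were named by accession through the RefSeq annotation of GRCm38.p6. Pycr1 and the marker Cd68, for which no probe was named, and Slc43a1, whose probe was not well above background, were not tested. Precision is limited by the number of arrays. The members, the lists and the motifs were chosen with earlier results of these data known. Named genes are the members and the highest and lowest gene of each list, and further genes were chosen after their values were seen. The steps were tested on simulated data. Alternatives were other normalizations, background correction, filters and probe rules.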

Additional observations from a re-analysis of the deposited data

How the results depend on the processing

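The median of the ATF4-CHOP genes stayed between -0.28 and -0.26 under every alternative except the use of unnormalized signals. There it was 0.14 beside 0.37 for all genes tested. In the same way 2 members passed 1.5-fold under every alternative except that one, where 0 did. Many alternatives could hardly move these values. The filters, the raising of dim signals and the removal of blocks of lost signal do not touch the members. The probe rules touch Atf4 alone, and the deposited values were quantile normalized as well. The normalizations that could move the median put it at -0.28 (75th percentile), -0.26 (cyclic loess) and -0.27 (normexp). Without normalization the medians of the other lists were 0.40 for the eIF2 genes, 0.33 for the partners, 0.23 for the transporters, 0.24 for the serine and one-carbon enzymes, 0.42 for the synthetases, 0.23 for the other targets and 0.26 for the ATF6 and XBP1 arms, and 2185 genes were higher past 1.5-fold. The 75th percentile moved the other targets to -0.19 and the ATF6 and XBP1 arms to -0.16, which cyclic loess moved to -0.10, and the dimmest probes moved the serine and one-carbon enzymes to -0.21. The counts over all genes depended on the processing. Past 2-fold there were 201 higher and 296 lower genes, and 125 and 606 with the 75th percentile, 17 and 38 with normexp, 77 and 141 with both arrays above background, 421 and 470 with no filter, 184 lower with dim signals raised, and 129 and 133 without the blocks of lost signal, an alternative chosen after the data were seen. Past 1.5-fold there were 249 and 1625 with the 75th percentile, 76 and 160 with normexp, 475 lower with both arrays above background, 919 higher with no filter and 420 lower without those blocks. The causes of these moves were not tested. For single member probes, 88 of the values under the alternatives moved by less than the spot error and 11 by more. Of those 11, all came from unnormalized signals except the brighter Atf4 probe with the 75th percentile, at -0.17. Part of the 88 could not differ, because the filters and the raising of dim signals leave the value of a member probe as it is. No paired analysis was possible because there is 1 array per condition. All member probes were well above background on both arrays.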

Other observations

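The CARE letters were also counted in the promoter windows of the other lists. They were found for 5 of 12 aminoacyl-tRNA synthetase genes that have a window (Aars, Gars, Iars, Tars and Yars), for 5 of 16 genes among the other targets (Fgf21, Herpud1, Jdp2, Nupr1 and Vldlr) and for 2 of 8 amino acid transporters (Slc1a4 and Slc7a11). They were found for 2 of 11 serine and one-carbon enzymes (Pck2 and Pycr1), 1 of 9 partners (Nupr1 again), 1 of 11 eIF2 genes (Eif2s3x), 0 of 13 genes of the ATF6 and XBP1 arms, 0 of 7 β cell markers and 1 of 6 markers of other cells (Cpa1), beside 3.97% of all windows. Of the synthetases with CARE letters, Aars was at -0.22, Iars at -0.19, Yars at -0.12, Gars at -0.06 and Tars at -0.02 on the log2 scale, FTO minus control, with Aars the only one past the spot error. Of the transporters with CARE letters, Slc1a4 was at -0.17 and Slc7a11 at -0.29. Of the other targets with CARE letters, Nupr1 was at -0.39, Fgf21 at -0.34, Jdp2 at -0.32, Vldlr at -0.08 and Herpud1 at -0.01. In the remaining lists Pck2 was at -0.21, Eif2s3x at -0.04 with a second probe at 0.22, and Cpa1, on a dim probe, at 0.29. Pycr1 was not tested. The probes of Gars, Iars, Slc1a4, Fgf21, Jdp2, Vldlr and Cpa1 lie in areas of lost signal. These are descriptions of single arrays and were not tested.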
